A study of Ambystoma mexicanum with 44 samples.

Results

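The comparison described here set the epidermis of denervated axolotl limb stumps at 3 days after amputation against the same tissue at 1 day. It used 8 of the 44 arrays of the study, chosen by their labels alone, 4 from day 1 and 4 from day 3. Each array measured 20035 probe sets other than controls, and 10951 of these carried a gene symbol, for 8639 genes. In these groups the forelimbs of aquatic axolotls (Ambystoma mexicanum) were cut through just above the elbow, the humerus was trimmed level with the wound, and the brachial nerves supplying the limb were severed. Innervated limbs received the same amputation with intact nerves, and flank wounds were made with a biopsy punch. The uninjured limb skin of day 0 was innervated, and no denervated group of day 0 was analysed here. Per the labels, epidermis together with the cells that stuck to it was taken, 2 harvested samples of an animal were pooled, and the 4 arrays of a group are biological replicates. Age, sex, hybridisation batch and the time between nerve cut and amputation were not given in the sources used here.

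An amputated salamander limb is covered within hours by migrating epidermis, the wound epidermis, which then thickens and exchanges signals with the cells beneath it. In an innervated stump these cells gather into a blastema, a mound of proliferating progenitors from which the limb regrows. A denervated stump also closes its wound, but the blastema fails and the stump heals without regrowth. Wound epidermis forms on both, which is why nerve-dependent and nerve-independent changes are usually sought by comparing them.

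The values are deposited log2 expression levels, so a difference of 1 is a 2-fold change, and errors of differences are standard errors from a fit of all 44 arrays with n = 4 arrays per group. A gene was called at an adjusted p under 0.05 in limma, with Benjamini-Hochberg adjustment over all probe sets. The words rose and fell are used for called genes. Between day 1 and day 3, 3136 probe sets (15.7%) rose and 2341 (11.7%) fell, together 27.3% of those tested, and 530 of the rises (2.65% of probe sets) and 436 of the falls (2.18%) were at least 2-fold. Of the 8639 named genes, 1674 (19.4%) rose and 1058 (12.2%) fell. These shares are the background for the list counts of this comparison. The median difference over named genes was 0.

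Epithelial markers were present in all 8 arrays. The keratin KRT8 lay between 13.93 and 14.22, the adhesion molecule EPCAM between 13.21 and 13.58, and the desmosomal plaque protein desmoplakin (DSP) between 13.27 and 13.67, where the values of all probe sets and arrays ran from 2.41 to 15.04. The arrays also carried transcripts of other tissues. A list of 42 skeletal muscle genes averaged 6.20, 7.66, 7.69 and 7.91 in the day 1 arrays and 5.79, 4.76, 8.78 and 4.78 in the day 3 arrays. The sum of their unlogged values lay between 15843 and 61654 in the earlier arrays, and between 5077 and 107760 in the later ones, where replicate 3 was the highest. Muscle signal was therefore high in 3 of 4 day 1 arrays and in day 3 replicate 3. In a principal component analysis of the 8 arrays, component 1 (47.8% of the variance) separated the days, and component 2 (19.8%) set day 3 replicate 3 apart. In bulk tissue of this kind, fewer cells of a type and less RNA per cell cannot be told apart.

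**Figure D1:**
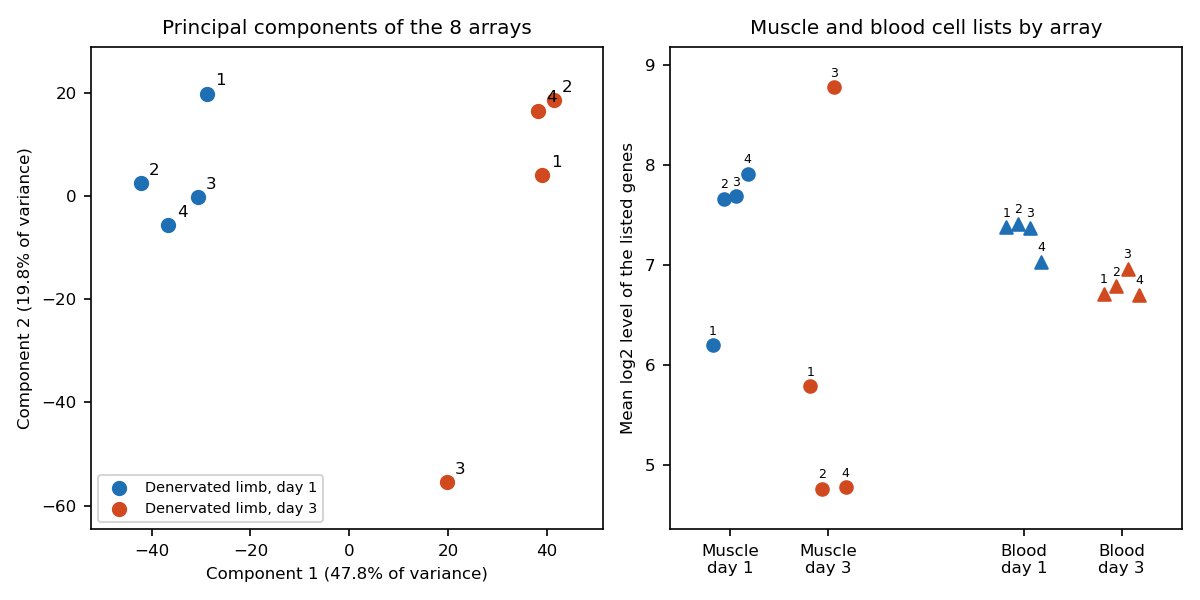
Left, the 8 arrays on the first principal components, numbered by replicate, with day 1 in blue and day 3 in red. Right, the mean log2 level of the skeletal muscle and the erythrocyte and thrombocyte lists in each array. Day 3 replicate 3 lies alone on component 2 and has the highest muscle mean, 8.78.

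Without day 3 replicate 3, 2937 probe sets rose and 2046 fell (24.9%), and 4704 of these 4983 were called in the same direction with all 8 arrays. Of named genes, 18.1% rose and 11% fell without that array, the background for list counts without it. Leaving it out does not take muscle out of the comparison. The muscle list then averaged 6.20, 7.66, 7.69 and 7.91 at day 1 against 5.79, 4.76 and 4.78 at day 3. Every remaining day 3 array thus lay below every day 1 array, so muscle signal and day cannot be told apart in that fit. The genes given next for the largest rises and falls were called in both fits, and their 4 day 3 values did not overlap with their 4 day 1 values. The muscle genes TPM1, MYL1 and CKM, given further on, do not meet that condition of no overlap. Such separation was common, with 2940 probe sets higher (14.7%) and 2147 lower (10.7%) in all day 3 arrays.

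Among named genes the largest rise belonged to KAZALD1, a secreted protein with a Kazal domain and similarity to insulin-like growth factor binding proteins. Its level was 8.18, 6.69, 7.12 and 7.74 in the day 1 arrays and 11.77, 11.85, 12.37 and 12.42 in the day 3 arrays. All day 3 arrays, that with muscle included, were more than 3 units above the highest day 1 array. The rise was 4.67 ± 0.37, or 25.5-fold (adjusted p = 2.66e-12). KAZALD1 averaged 4.37 ± 0.22 (SD, n = 4) in uninjured limb skin and 12.56 ± 0.30 (SD, n = 4) in denervated limbs at day 7, so most of its climb lay between days 1 and 3.

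Some proteins of the provisional matrix, the scaffold laid down on an open wound, were also among the large rises. Fibronectin (FN1), the main adhesive protein of that scaffold, read 8.84, 7.65, 8.73 and 7.91 at day 1 and 12.15, 11.71, 11.73 and 11.20 at day 3. It rose by 3.42 ± 0.33, a 10.7-fold difference (adjusted p = 2.86e-10). TGFBI, an integrin-binding matrix protein induced by TGF-beta, rose by 2.18 ± 0.18 from day 1 values of 10.67, 11.13, 11.04 and 11.04 to day 3 values of 12.89, 13.47, 13.20 and 13.04. Thrombospondin 2 (THBS2), a matricellular regulator of cell adhesion, rose by 1.98 ± 0.28, whereas its relative thrombospondin 1 (THBS1), abundant in platelets and fresh wounds, fell by 1.72 ± 0.26. THBS1 read 8.89, 9.88, 8.91 and 9.63 at day 1 and 7.43, 7.25, 7.89 and 7.86 at day 3, without overlap. Of 26 measured genes of this list 10 rose, 3 fell and 13 were not called, with a median of 0.193. Its median ranged from 0.0738 without day 3 replicate 4 to 0.278 without day 3 replicate 2, and 9 rose and 3 fell without day 3 replicate 3. Other secreted or matrix-binding proteins among the largest rises were PAMR1, with a peptidase-like domain (3.58 ± 0.27), the C1q and TNF related protein C1QTNF1 (2.70 ± 0.24), CCDC80 (2.65 ± 0.41), the serine protease PRSS23 (2.36 ± 0.47) and the hyaluronan link protein HAPLN3 (2.34 ± 0.48).

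Laminins, the cross-shaped heterotrimers that organise a basement membrane, changed by chain. The alpha 1 chain LAMA1, typical of embryonic basement membranes, read 4.77, 4.60, 4.10 and 4.77 at day 1 and 7.47, 8.15, 7.18 and 8.22 at day 3, and rose by 3.20 ± 0.26 or 9.16-fold (adjusted p = 9.2e-12). LAMA1 at day 1 lay near its level in uninjured limb skin (4.83 ± 0.27 (SD, n = 4)), and at day 7 it was 8.66 ± 0.15 (SD, n = 4). The beta 1 chain LAMB1 rose by 2.43 ± 0.36, from 10.09, 9.80, 10.63 and 9.70 to 12.72, 12.68, 12.03 and 12.51. Peroxidasin (PXDN), which crosslinks collagen IV, and the anchoring fibril collagen COL7A1 rose by 1.80 ± 0.23 and 1.57 ± 0.22. Integrin alpha 6 (ITGA6), the laminin receptor subunit of the hemidesmosome, fell by 2.14 ± 0.26, from 10.28, 9.92, 9.61 and 9.59 to 7.66, 7.69, 7.67 and 7.84. In the list of 30 basement membrane and hemidesmosome genes 5 rose (16.7%) and 3 fell (10%), with a median of −0.01. These shares were near the 19.4% and 12.2% of all named genes. The collagen IV chains COL4A1 (−0.14 ± 0.65) and COL4A2 (−0.33 ± 0.59) and the hemidesmosomal collagen COL17A1 (0.19 ± 0.11) did not pass.

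The interstitial matrix made by fibroblasts changed in few members. Fibrillin 2 (FBN2), a microfibril protein of embryonic tissue, read 7.67, 7.60, 7.37 and 7.47 at day 1 and 9.38, 9.26, 10.08 and 10.22 at day 3 and rose by 2.21 ± 0.36. The collagen-binding proteoglycan decorin (DCN) fell by 0.95 ± 0.16, from 8.45, 7.94, 8.13 and 8.13 to 7.23, 7.31, 7.14 and 7.17. Microfibril protein MFAP2 and the secreted protein CTHRC1 rose by 0.97 ± 0.18 and 1.17 ± 0.26. The list of 44 had 5 rises and 2 falls with a median of −0.0438, and the type I collagen chains COL1A1 (−0.41 ± 0.37) and COL1A2 (−0.35 ± 0.28) did not pass. Among 22 matrix proteases and inhibitors 4 rose (18.2%) and 3 fell (13.6%), shares near the 19.4% and 12.2% of all named genes. The metalloproteinase inhibitor TIMP1 dropped from 13.06, 13.27, 12.68 and 12.41 to 11.02, 10.22, 10.07 and 10.74, a fall of 2.34 ± 0.42 or 5.07-fold (adjusted p = 3.57e-05). Its lowest day 1 array was above its highest day 3 array, as its selection required. The day 3 mean of TIMP1 remained above the 6.20 ± 1.25 (SD, n = 4) of uninjured limb skin. The membrane-bound collagenase MMP14 rose by 0.90 ± 0.18, the secreted protease MMP19 fell by 1.26 ± 0.20, and MMP9 (0.02 ± 0.14) and MMP2 (0.48 ± 0.30) did not pass.

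**Figure D2:**
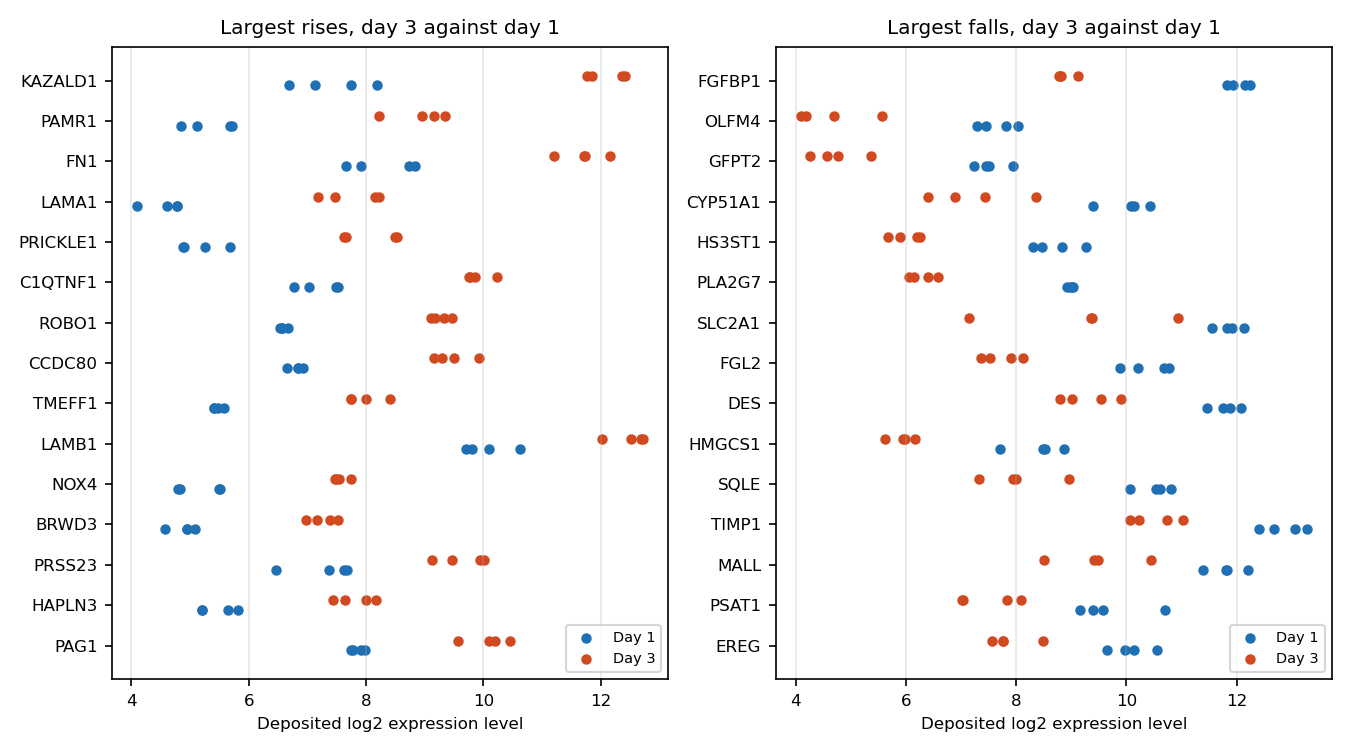
Log2 levels in the 4 day 1 (blue) and 4 day 3 (red) arrays for the 15 genes with the largest rises (left) and the 15 with the largest falls (right) that were called with and without day 3 replicate 3. The 4 day 3 points of each gene lie apart from its 4 day 1 points, as the selection required.

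The next 6 genes with large rises were in none of the gene lists and have varied roles. PRICKLE1, a cytoplasmic component of planar cell polarity, read 4.90, 4.88, 5.68 and 5.26 at day 1 and 8.50, 8.53, 7.62 and 7.66 at day 3 and rose by 2.90 ± 0.28. ROBO1, the receptor through which slit proteins steer axons and migrating cells, rose by 2.68 ± 0.36, from 6.57, 6.54, 6.67 and 6.57 to 9.47, 9.11, 9.33 and 9.18. The spread of ROBO1 within each day was small against that step, but of its 3 probe sets only this 1 was called. The transmembrane protein TMEFF1, the hydrogen peroxide producing oxidase NOX4, the bromodomain protein BRWD3 and the adaptor PAG1 rose by 2.50 ± 0.25, 2.40 ± 0.23, 2.38 ± 0.20 and 2.22 ± 0.18. Among rises of named genes called in both fits and without overlap, the smallest adjusted p-values were those of the E2F partner TFDP2 (1.80 ± 0.10, adjusted p = 1.21e-15), the Mediator subunit MED4 (1.56 ± 0.09), the autophagy protein RB1CC1 (1.31 ± 0.09), the chromatin remodelling subunit PBRM1 (1.25 ± 0.09) and the vitronectin receptor subunit integrin beta 5 (ITGB5, 1.44 ± 0.10). TFDP2 read 7.52, 7.08, 7.16 and 7.15 at day 1 and 8.91, 9.16, 8.92 and 9.11 at day 3.

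Among the falls, FGFBP1, a secreted carrier that frees fibroblast growth factors from the matrix, had the largest difference among named genes that were called in both fits and whose arrays did not overlap between the days. Falls of muscle genes with larger mean differences, such as MYL1 and CKM, overlapped and are given with the skeletal muscle list. It read 12.25, 12.15, 11.82 and 11.93 at day 1 and 9.13, 8.77, 8.82 and 8.80 at day 3, so that the arrays of a day were close and the days far apart. The fall was 3.16 ± 0.38, or 8.92-fold (adjusted p = 3.85e-08). OLFM4, a secreted glycoprotein of gut epithelium and neutrophils in mammals, fell by 3.02 ± 0.35, from 7.82, 8.04, 7.29 and 7.46 to 5.57, 4.69, 4.18 and 4.10. The platelet-activating factor hydrolase PLA2G7 fell by 2.69 ± 0.21, from 8.98, 9.03, 8.92 and 9.02 to 6.59, 6.40, 6.05 and 6.14, with an adjusted p of 1.47e-12 in limma. HS3ST1, which adds sulfate to heparan chains, the fibrinogen-like protein FGL2, and the membrane protein MALL fell by 2.71 ± 0.28, 2.66 ± 0.28 and 2.34 ± 0.31. LMO7, an actin-binding protein of adherens junctions, fell by 1.98 ± 0.13 (adjusted p = 1.41e-14), from 11.77, 12.05, 11.83 and 11.78 to 9.79, 9.79, 9.63 and 10.29, and the adaptor CMIP by 1.63 ± 0.13.

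Cholesterol is made by a chain of enzymes that cells switch on together when sterols run low. Of 26 measured genes for cholesterol and fatty acid synthesis 13 fell, 0 rose and 13 were not called, with a median of −0.588, against 12.2% of all named genes falling. The sterol demethylase CYP51A1 read 10.42, 9.39, 10.09 and 10.14 at day 1 and 8.36, 7.43, 6.40 and 6.89 at day 3 and fell by 2.74 ± 0.53, or 6.68-fold. HMGCS1, which feeds the pathway, fell by 2.46 ± 0.42, from 8.87, 7.70, 8.49 and 8.52 to 6.16, 5.95, 5.99 and 5.63. Squalene epoxidase (SQLE) fell by 2.45 ± 0.51, the fatty acid synthase FASN by 1.28 ± 0.14 and the citrate-cleaving enzyme ACLY by 0.98 ± 0.13. For each of these 5 genes the arrays of the 2 days did not overlap, which for CYP51A1, HMGCS1 and SQLE was a condition of their selection. Without day 3 replicate 3, 12 fell and the median was −0.564. Within uninjured limb skin CYP51A1 was uneven, at 9.02 ± 2.03 (SD, n = 4), and at day 7 it stood at 6.14 ± 0.18 (SD, n = 4).

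Sugar and amino acid supply genes also fell in part. The glucose transporter SLC2A1 (GLUT1) read 11.56, 12.14, 11.83 and 11.92 at day 1 and 9.36, 10.93, 7.14 and 9.37 at day 3. The groups did not overlap, as the selection required, but the day 3 arrays spread widely and the muscle-bearing replicate 3 was the lowest. The difference was −2.66 ± 0.56 (adjusted p = 0.000281) with all arrays and −1.98 ± 0.53 without that one. SLC16A1, a lactate transporter, fell by 2.07 ± 0.26. The hexosamine pathway enzyme GFPT2 fell by 2.79 ± 0.37 and the serine synthesis enzyme PSAT1 fell by 2.21 ± 0.54. GFPT2 read 7.45, 7.94, 7.50 and 7.24 at day 1 and 4.27, 4.76, 4.57 and 5.36 at day 3. In the list of 30 glycolysis, lactate and hypoxia genes 4 rose and 8 fell (median −0.136). BNIP3, a hypoxia-induced mitophagy receptor, rose by 1.32 ± 0.14, the liver-type phosphofructokinase PFKL by 0.68 ± 0.09, and GAPDH (0.21 ± 0.12) and LDHA (−0.20 ± 0.09) did not pass. Oxidant defence had 2 rises and 9 falls of 36 (median −0.138), with the cysteine dioxygenase CDO1 falling by 2.16 ± 0.24 and the glutathione synthesis subunit GCLC by 0.84 ± 0.14.

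The chaperones of the endoplasmic reticulum, where secreted proteins fold, fell in many members. Of 48 measured genes 24 fell and 1 rose, with a median of −0.325. SDF2L1, a cofactor of the main chaperone BiP, read 11.79, 11.78, 11.65 and 11.56 at day 1 and 9.97, 10.06, 9.92 and 9.96 at day 3. The arrays of each day lay within 0.3 units of each other, and the fall was 1.72 ± 0.11 or 3.29-fold (adjusted p = 1.44e-14). MANF, a secreted protein induced by unfolded proteins, fell by 1.34 ± 0.11, from 12.69, 12.58, 12.40 and 12.40 to 11.34, 11.05, 11.09 and 11.24. CRELD2, also induced by this stress, fell by 1.70 ± 0.15, from 11.27, 10.98, 10.98 and 10.98 to 9.44, 9.51, 9.24 and 9.24. The called rise was MBTPS1, the protease that releases the sensor ATF6 (0.80 ± 0.08), while ATF6 itself (−0.08 ± 0.24) and the stress sensor ERN1 (−0.08 ± 0.11) did not pass. Without day 3 replicate 3 the counts were 23 and 1. SDF2L1 averaged 10.49 ± 0.22 (SD, n = 4) in uninjured limb skin, so its day 3 mean was below both earlier levels.

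Chaperones of the cytosol moved in both directions, with 9 rises and 5 falls of 31. The heat shock protein HSP90AA1, its client adaptor CDC37 and its activator AHSA1 fell by 1.56 ± 0.20, 0.54 ± 0.07 and 0.86 ± 0.16, and CCT6A of the CCT ring that folds actin and tubulin rose by 0.31 ± 0.05. The proteasome, the complex that degrades marked proteins, had small rises in many subunits, 19 of 36 with 0 falls and a median of 0.199, and 19 rose without day 3 replicate 3. The base subunit PSMD1 read 11.07, 10.95, 11.12 and 10.98 at day 1 and 11.43, 11.58, 11.42 and 11.38 at day 3 and rose by 0.42 ± 0.07. The activator PSME4 rose by 0.99 ± 0.18 and the catalytic subunit PSMB7 by 0.28 ± 0.05. Apart from PSME4 the called subunits rose by less than 0.5 log2 units.

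Lysosomal genes had 13 rises and 2 falls of 40 (median 0.166). The galactosidase GLB1 and the cathepsins CTSD and CTSB rose by 0.72 ± 0.10, 0.66 ± 0.09 and 0.61 ± 0.09. CTSD read 11.42, 11.39, 11.47 and 11.58 at day 1 and 12.04, 12.01, 12.42 and 12.02 at day 3, with the muscle-bearing array the highest. Genes for making ribosomes in the nucleolus fell in 20 of 63 cases and rose in 1, with a median of −0.0900. WDR43, UTP18 and BYSL, factors that process the small subunit's RNA, fell by 0.92 ± 0.11, 0.85 ± 0.10 and 0.96 ± 0.12. WDR43 read 8.80, 8.83, 8.83 and 8.67 at day 1 and 7.87, 7.71, 7.93 and 7.92 at day 3. Of the 58 cytosolic ribosomal proteins themselves 3 rose and 0 fell, and of the 66 mitochondrial ribosomal proteins 25 rose and 2 fell (20 and 1 without day 3 replicate 3), with MRPL23 up by 0.46 ± 0.07 and MRPS7 by 0.49 ± 0.08. Oxidative phosphorylation and the citric acid cycle had 9 rises and 4 falls of 56 with all arrays, and 1 rise and 6 falls without day 3 replicate 3, the array of highest muscle signal. The part of muscle in that change was not tested.

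**Figure D3:**
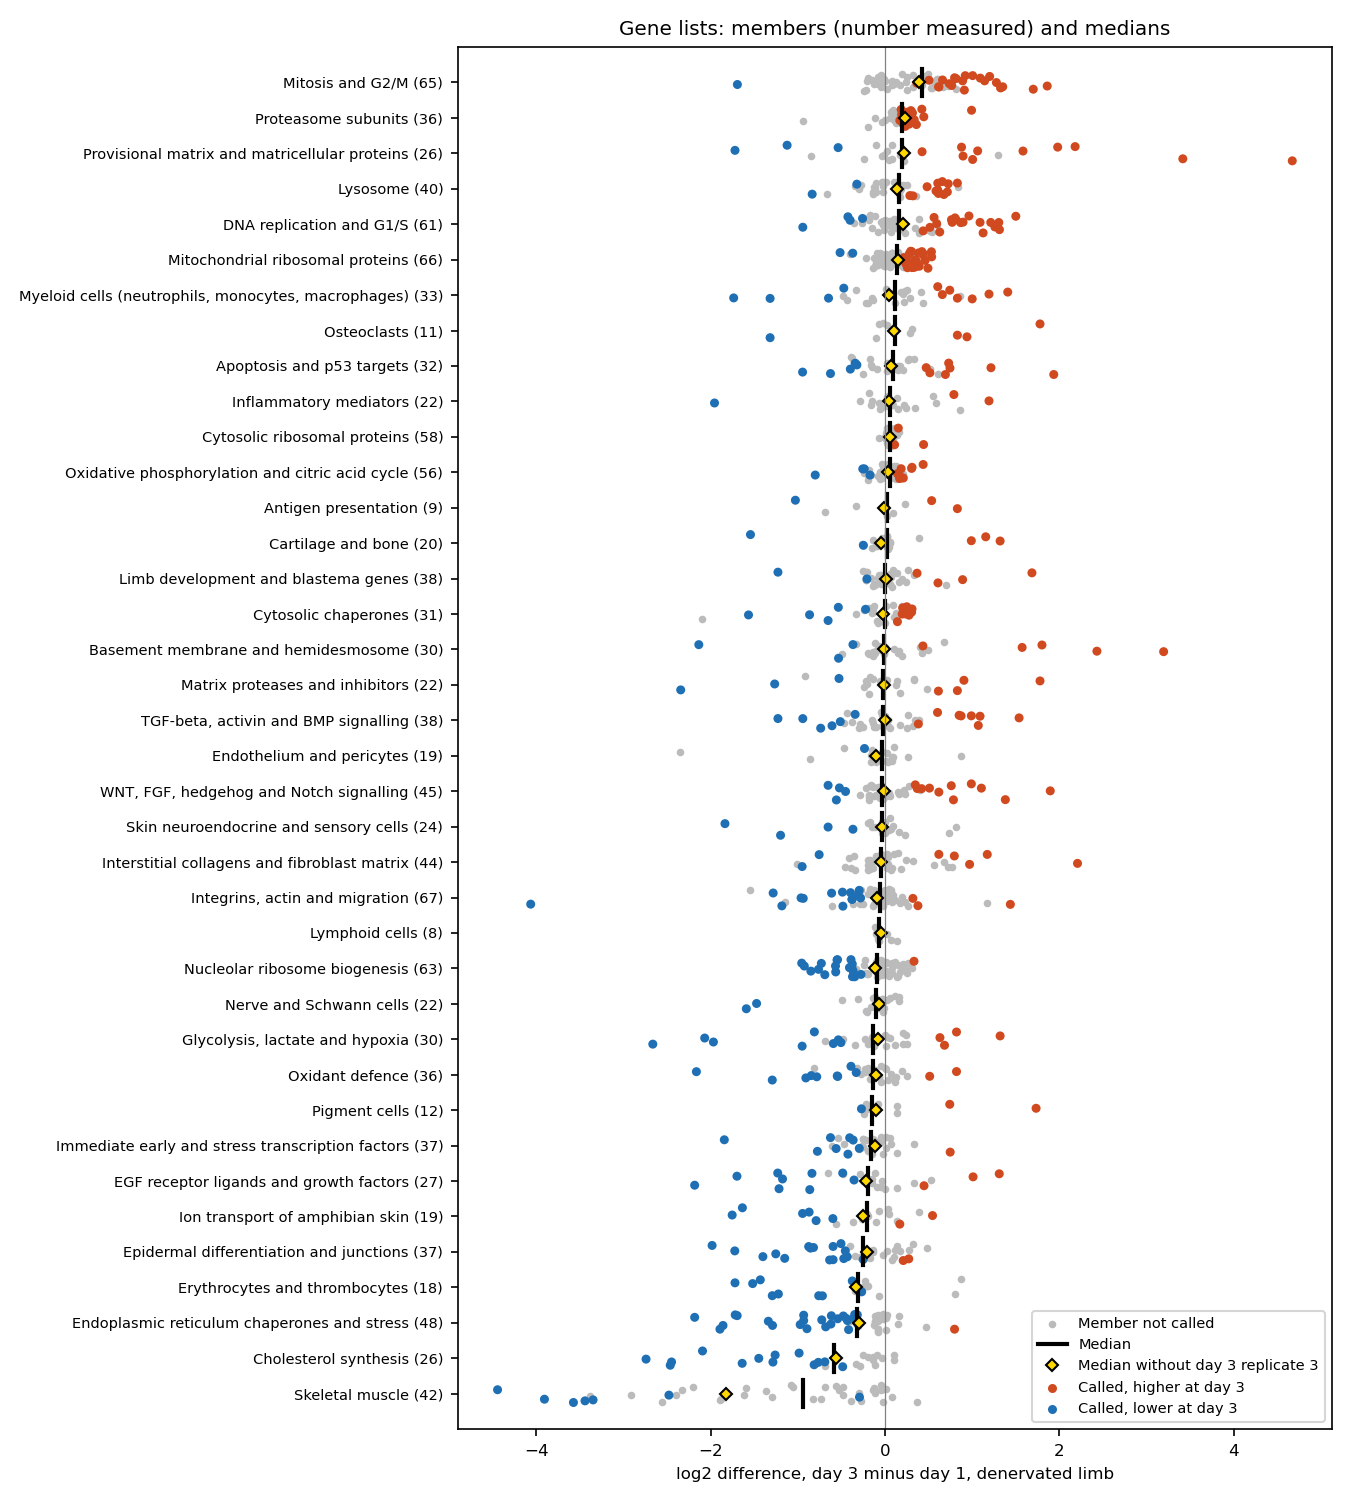
Log2 differences between day 3 and day 1 for the measured members of 38 gene lists, ordered by median, with called members in red (higher) or blue (lower), the median as a black bar and the median without day 3 replicate 3 as a yellow diamond. Mitosis has the highest median (0.422) and skeletal muscle the lowest (−0.943), and the muscle median shifts to −1.83 without replicate 3.

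Part of the cell cycle genes rose. Of 65 genes of mitosis and G2/M 21 rose and 1 fell, with a median of 0.422. The list mean overlapped between the days, at 6.74, 6.22, 6.93 and 6.95 in the day 1 arrays and 6.71, 7.62, 7.20 and 7.04 in the day 3 arrays. Stathmin (STMN1), a microtubule regulator of dividing cells, read 11.77, 11.31, 11.88 and 11.90 at day 1 and 12.92, 13.17, 13.01 and 12.87 at day 3 and rose by 1.28 ± 0.14 (adjusted p = 5.73e-09). CEP55, needed to cut daughter cells apart, and the spindle-associated hyaluronan receptor HMMR rose by 1.35 ± 0.17 and 1.00 ± 0.17. HMMR read 5.94, 5.92, 6.06 and 6.22 at day 1 and 6.91, 7.32, 6.97 and 6.96 at day 3. The called fall was lamin B1 (LMNB1), a protein of the nuclear lamina (−1.69 ± 0.31). Core mitotic genes such as cyclin B1 (CCNB1, 0.08 ± 0.37), TOP2A (0.00 ± 0.28), PLK1 (−0.21 ± 0.31) and AURKA (−0.15 ± 0.38) did not pass. Without day 3 replicate 3, 14 of the 65 rose and 1 fell with a median of 0.385. That share of rises was near the 18.1% of all named genes in that fit.

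Replication genes had 19 rises and 4 falls of 61 (median 0.160), and 19 and 3 without day 3 replicate 3. The polymerase delta subunit POLD2, the clamp loader subunits RFC4 and RFC1, and the origin-firing kinase CDC7 rose by 1.09 ± 0.08, 0.96 ± 0.10, 1.26 ± 0.15 and 1.30 ± 0.16. POLD2 read 7.55, 7.40, 7.65 and 7.77 at day 1 and 8.70, 8.67, 8.79 and 8.57 at day 3, without overlap. The replicative helicase subunits MCM2 (0.00 ± 0.28) and MCM5 (0.05 ± 0.26) and the sliding clamp PCNA (0.35 ± 0.24) did not pass. In the apoptosis and p53 list 7 of 32 rose (21.9%) and 5 fell (15.6%), shares near the 19.4% and 12.2% of all named genes. Sestrin 3 (SESN3), a FOXO-induced stress protein, and TP53INP1 rose by 1.94 ± 0.18 and 1.22 ± 0.19.

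Genes of the differentiated epidermis and its junctions were among the falls. Of 37 measured genes for differentiation and cell junctions 16 fell and 2 rose, with a median of −0.250, and 14 fell and 3 rose without day 3 replicate 3. The tight junction scaffold TJP1, the cornified envelope protein periplakin (PPL) and plakophilin 3 (PKP3) of the desmosome fell by 0.88 ± 0.09, 1.40 ± 0.17 and 1.25 ± 0.17. TJP1 read 11.45, 11.38, 11.27 and 11.41 at day 1 and 10.47, 10.70, 10.46 and 10.38 at day 3. E-cadherin (CDH1), the adhesion molecule of adherens junctions, read 13, 12.90, 12.89 and 12.84 and then 12.21, 12.40, 12.20 and 12.44, a fall of 0.60 ± 0.07. The epidermal stem cell factor TP63 (0.19 ± 0.18), KRT8 (0.10 ± 0.08), EPCAM (−0.14 ± 0.11) and plakoglobin (JUP, 0.08 ± 0.07) did not pass.

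Amphibian skin takes up salt and excretes ammonia and acid through ionocytes, and 6 of 19 genes for this transport fell and 2 rose (median −0.203), 5 and 1 without day 3 replicate 3. The ammonia channel RHCG read 11.90, 12.01, 11.53 and 11.78 at day 1 and 9.84, 10.44, 9.93 and 10.47 at day 3 and fell by 1.64 ± 0.20 (adjusted p = 2.85e-08). The sodium pump subunit ATP1B2 fell by 1.75 ± 0.25 and the water and glycerol channel AQP3 by 0.60 ± 0.13, whereas NEDD4L, a ligase that removes sodium channels from the membrane, rose by 0.54 ± 0.13. RHCG had averaged 12.90 ± 0.26 (SD, n = 4) in uninjured skin, above every array of days 1 and 3. Among genes of skin neuroendocrine and sensory cells, which touch nerve endings, 4 of 24 fell and 0 rose. The share of falls, 16.7%, was near the 12.2% of all named genes, and 3 fell without day 3 replicate 3. The calls of SCG2 and GRP in this list were each lost without any 1 of 3 arrays. Neuropeptide Y (NPY) fell by 1.84 ± 0.30, from 9.15, 8.51, 8.12 and 7.86 to 6.43, 6.53, 6.17 and 7.17.

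Genes of adhesion and the actin skeleton had 14 falls and 3 rises of 67 (median −0.0550). Ezrin (EZR), which ties actin to the membrane, read 12.91, 12.95, 12.75 and 12.76 at day 1 and 11.73, 11.78, 11.35 and 11.78 at day 3 and fell by 1.18 ± 0.11. The motor MYO1E and the actin-binding profilin PFN1 fell by 1.28 ± 0.17 and 0.38 ± 0.05. Its largest difference, chosen after its values were seen, was that of tropomyosin 1 (TPM1), a muscle filament protein (−4.06 ± 1.41), which read 9.39, 11.04, 10.54 and 12.09 at day 1 and 7.55, 2.89, 12.99 and 3.38 at day 3, with replicate 3 highest of the day 3 arrays. Beta 5 integrin rose while ITGA5 (−0.18 ± 0.11), ITGAV (0.18 ± 0.13) and RAC1 (−0.11 ± 0.04) did not pass.

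Epiregulin (EREG), a ligand of the epidermal growth factor receptor, read 10.14, 10.55, 9.65 and 9.97 at day 1 and 7.76, 7.76, 7.57 and 8.49 at day 3, a fall of 2.18 ± 0.24, and the receptor EGFR fell by 1.22 ± 0.13. Of the 27 genes of this list 9 fell and 3 rose (median −0.198). The IGF-binding protein IGFBP2 rose by 1.01 ± 0.19 and its relative IGFBP6 fell by 1.70 ± 0.33. IGFBP2 read 8.70, 8.14, 8.47 and 8.30 at day 1 and 9.45, 9.37, 9.38 and 9.45 at day 3, whereas IGFBP6 read 7.38, 6.90, 6.96 and 6.94 and then 5.34, 5.48, 5.46 and 5.11.

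TGF-beta family signalling had 8 rises and 6 falls of 38 (median −0.0275), and 8 and 4 without day 3 replicate 3. The shares of 21.1% and 15.8% with all arrays were near the 19.4% and 12.2% of all named genes. The intracellular carriers SMAD4 and SMAD1 rose by 0.99 ± 0.09 and 1.07 ± 0.11, the receptor TGFBR1 rose by 0.87 ± 0.12, and the repressor SKIL fell by 1.23 ± 0.14. SMAD1 read 8.26, 8.10, 8.16 and 8.34 at day 1 and 9.46, 9.04, 9.51 and 9.13 at day 3. The ligands TGFB1 (0.26 ± 0.31) and TGFB2 (0.18 ± 0.17) did not pass. In WNT, FGF, hedgehog and Notch signalling 11 of 45 rose (24.4%) and 4 fell (8.89%), against 19.4% and 12.2% of all named genes, with a median of −0.03. Without day 3 replicate 3, 9 rose and 4 fell, where 18.1% and 11% of all named genes did. ETV4, a transcription factor induced by FGF, read 5.63, 5.37, 5.54 and 5.67 at day 1 and 6.81, 7.19, 7.00 and 6.73 at day 3 and rose by 1.38 ± 0.18. DKK3, a secreted dickkopf protein, LGR4, a receptor that strengthens WNT signals, and FGFR1 rose by 1.90 ± 0.29, 0.76 ± 0.14 and 0.78 ± 0.15. The ligands FGF8 (−0.06 ± 0.09), FGF9 (0.22 ± 0.10) and FGF10 (−0.03 ± 0.11) did not pass.

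Of 38 limb development and blastema genes 4 rose and 2 fell, shares of 10.5% and 5.26% that lay below those of all named genes. SALL4, a stem cell transcription factor, read 9.56, 8.52, 9.19 and 8.76 at day 1 and 10.83, 10.79, 10.38 and 10.77 at day 3 and rose by 1.68 ± 0.17. In uninjured skin SALL4 had averaged 3.88 ± 0.07 (SD, n = 4), so the larger part of its induction preceded day 1. MYCN and the retinoid enzyme RDH10 rose by 0.89 ± 0.24 and 0.61 ± 0.17, and the homeobox gene DLX6 fell by 1.23 ± 0.25. RDH10 lost its call without day 3 replicate 1 (0.41, adjusted p = 0.0617). MSX2 (−0.04 ± 0.11) and TBX5 (0.14 ± 0.24) did not pass. Immediate early and stress factors had 8 falls (21.6%) and 1 rise of 37, against 12.2% of all named genes falling. Without day 3 replicate 3 they had 4 falls and 1 rise. That share of falls was near the 11% of all named genes in that fit. The NF-kappaB inhibitor NFKBIA fell by 1.84 ± 0.41, from 8.29, 10.25, 8.80 and 8.83 to 7.25, 7.20, 7.09 and 7.26, while FOS (−0.26 ± 0.95), JUN (0.01 ± 0.13) and EGR1 (0.14 ± 0.51) did not pass.

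**Figure D4:**
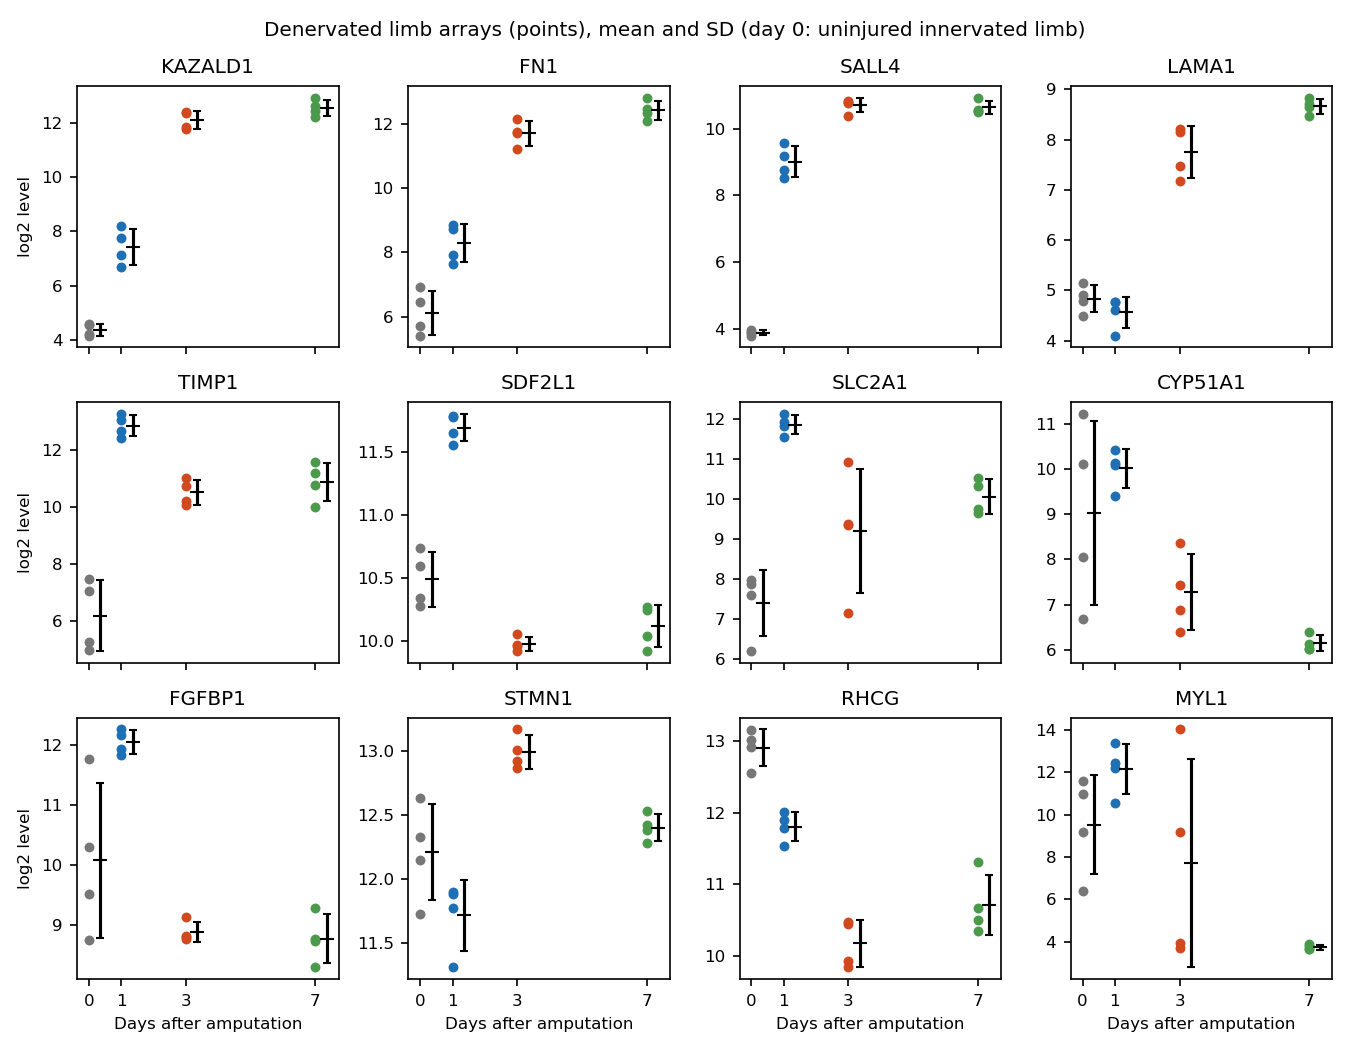
Log2 levels of 12 genes in each array of uninjured innervated limb skin (day 0) and of denervated limbs at days 1, 3 and 7, with mean and SD (n = 4). KAZALD1 and FN1 stay high at day 7, TIMP1 and SDF2L1 are highest at day 1, and MYL1 is scattered at day 3, where replicate 3 reads 14.02.

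In the myeloid list 7 of 33 genes rose (21.2%) and 4 fell (12.1%), shares near those of all named genes (19.4% and 12.2%), and the counts were 6 and 5 without day 3 replicate 3. The list's median was 0.117. The complement subunit C1QC, made by macrophages, read 9.47, 10.31, 9.72 and 9.51 at day 1 and 11.03, 10.67, 11.47 and 10.61 at day 3 and rose by 1.19 ± 0.21. NCF1, a subunit of the phagocyte oxidase, read 7.88, 8.12, 8.06 and 8.40 and then 7.14, 6.40, 6.24 and 5.74, a fall of 1.74 ± 0.26. The macrophage regulator TNFAIP8L2 rose by 1.00 ± 0.12, and the leukocyte marker PTPRC (0.10 ± 0.26) and the macrophage receptor CSF1R (0.28 ± 0.17) did not pass. Of 11 osteoclast genes 3 rose, among them the bone-degrading cathepsin CTSK (1.78 ± 0.46) and the phosphatase ACP5 (0.83 ± 0.23), and SPI1, the transcription factor shared by myeloid cells, fell by 1.32 ± 0.24. CTSK read 7.28, 6.14, 5.67 and 5.89 at day 1 and 8.80, 7.64, 7.80 and 7.85 at day 3. Inflammatory mediators had 2 rises and 1 fall of 22, the fall being the prostaglandin E synthase PTGES (−1.96 ± 0.36). Antigen presentation had 2 rises and 1 fall of 9 (22.2% and 11.1%, also near the background), the fall being IRF1 (−1.03 ± 0.37), whose difference was −0.62 (adjusted p = 0.242) without day 1 replicate 2 and whose call was also lost without day 3 replicate 1, 2 or 4. Of 8 lymphoid genes 0 were called in limma and 0 had an unadjusted p under 0.05, against 27.3% of probe sets called. The lowest adjusted p among them was 0.424, for the B cell kinase BTK.

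Markers of red cells and thrombocytes, 18 genes, had 9 falls and 0 rises with a median of −0.305, and 7 falls without day 3 replicate 3. Their mean lay between 7.03 and 7.41 in the day 1 arrays and between 6.70 and 6.96 in the day 3 arrays, and the sum of their unlogged values between 7876 and 9850 and between 5940 and 7557. The haem synthesis enzyme ALAS2 fell by 1.52 ± 0.44, from 10.68, 10.53, 10.64 and 10.03 to 8.77, 9.09, 8.94 and 9.01, and the transcription factor NFE2 by 1.43 ± 0.38. THBS1, given above with the provisional matrix, is also in this list, and the share of blood cells in its fall was not tested. Endothelial and pericyte genes had 1 fall and 0 rises of 19, the fall being ERG (−0.24 ± 0.09), a call lost without any of 7 arrays (adjusted p from 0.0511 to 0.15). Nerve and Schwann cell genes had 2 falls and 0 rises of 22, namely the myelin protein MAL (−1.59 ± 0.41) and the small heat shock protein CRYAB (−1.47 ± 0.40). The neurofilament NEFL (−0.31 ± 0.13), myelin basic protein MBP (−0.50 ± 1.00) and the glial receptor NGFR (−0.04 ± 0.15) did not pass. Pigment cell genes had 2 rises (16.7%) and 1 fall (8.33%) of 12, shares near the 19.4% and 12.2% of all named genes. The receptor KIT rose by 1.73 ± 0.26. The fall, of DCT, lost its call without any 1 of 6 arrays, and the other rise, of GPNMB, without any 1 of 3. Cartilage and bone genes had 3 rises and 2 falls of 20, where the rise of COL9A1 (1.16 ± 0.41) came with day 3 arrays of 7.69, 4.61, 4.34 and 4.86. Without day 3 replicate 1 COL9A1 differed by 0.38 (adjusted p = 0.373), and its call was also lost without day 1 replicate 1 or 4.

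In the skeletal muscle list 7 of 42 genes fell with all arrays and 28 without day 3 replicate 3, when the median moved from −0.943 to −1.83. The myosin light chain MYL1 read 10.56, 12.45, 12.19 and 13.39 at day 1 and 9.19, 3.93, 14.02 and 3.68 at day 3, so that replicate 3 exceeded every day 1 array. The call of MYL1 was lost without day 3 replicate 2 (adjusted p = 0.0891) or 4 (adjusted p = 0.0913). The creatine kinase CKM followed, at 9.41, 11.69, 11.97 and 12.78 and 8.59, 5.10, 13.68 and 5.09. Desmin (DES), the intermediate filament of muscle, did not show this order, with 12.07, 11.47, 11.88 and 11.75 at day 1 and 9.91, 9.02, 8.80 and 9.53 at day 3, where replicate 3 was the lowest. DES fell by 2.48 ± 0.35 (adjusted p = 9e-07). With the muscle mean of each array as a covariate, an alternative chosen after seeing the data, 2958 probe sets rose and 2447 fell, and 4867 of these 5405 were called in the same direction as without it. With that covariate, which is built from the list itself, the muscle list had 5 rises and 2 falls and its median was 0.0555. Without the 4 denervated arrays of highest muscle signal (3 of day 1 and 1 of day 3) 1289 rose and 944 fell, and 2139 of these 2233 were among the calls of the full comparison in the same direction. In that smaller set, where 8.16% of named genes rose and 5.19% fell, 8 of 26 cholesterol genes, 16 of 48 endoplasmic reticulum genes and 7 of 37 epidermal genes fell, and 5 of 65 mitotic genes rose.

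The change from day 1 to day 3 in the denervated limb was then set against that in the innervated limb, which asks what depends on the nerve in this interval. The test of the difference itself called 10 probe sets with a more positive and 37 with a more negative change in the denervated limb, 0.235% of 20035, where 1778 had an unadjusted p under 0.05. Leaving out the denervated day 3 replicate 3 gave 6 and 17, leaving out denervated day 1 replicate 1 gave 6 and 19, leaving out innervated day 1 replicate 1 gave 39 and 46, and leaving out innervated day 1 replicate 3 gave 6 and 21. Of named genes, 27 of 8639 (0.313%) were called. LMO7, the junction protein named above, fell in both limbs. Its changes were −1.98 ± 0.13 in the denervated limb and −0.68 ± 0.13 in the innervated limb, a difference between them of −1.31 ± 0.18 (adjusted p = 0.000224). KRIT1, which stabilises junctions between endothelial cells, rose by 1.28 ± 0.11 in the denervated limb, from 5.76, 5.90, 6.07 and 6.16 to 7.39, 7.24, 7.14 and 7.24. It also rose in the innervated limb, by 0.36 ± 0.11 (difference 0.92 ± 0.15, adjusted p = 0.00281). KRIT1 averaged 5.97 in the denervated and 6.675 in the innervated limb at day 1, and 7.25 and 7.03 at day 3. The limbs thus lay farther apart at day 1 than at day 3. OVOL2, a transcriptional repressor that keeps cells epithelial, read 7.12, 6.80, 6.83 and 7.25 at day 1 and 7.29, 7.13, 7.42 and 7.46 at day 3 in the denervated limb, a difference of 0.32 ± 0.17 that was not called, against 1.56 ± 0.17 in the innervated limb (difference −1.24 ± 0.23, adjusted p = 0.00854). OVOL2 averaged 7.00 in the denervated and 6.435 in the innervated limb at day 1, and 7.325 and 7.995 at day 3. The order of the limbs thus turned between the days. The epithelial cell surface protein GPA33 had changes of −0.48 ± 0.08 and 0.13 ± 0.08 (difference −0.62 ± 0.12, adjusted p = 0.00854). GFPT2 and MALL, whose falls are given above, were also called in this limma test. Their differences were −2.81 ± 0.53 (adjusted p = 0.00854) and −2.055 ± 0.44 (adjusted p = 0.0241), with innervated changes of 0.015 ± 0.37 and −0.285 ± 0.31. Neither passed the selection that required calls also without day 3 replicate 3 and without 3 arrays with muscle transcripts together.

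**Figure D5:**
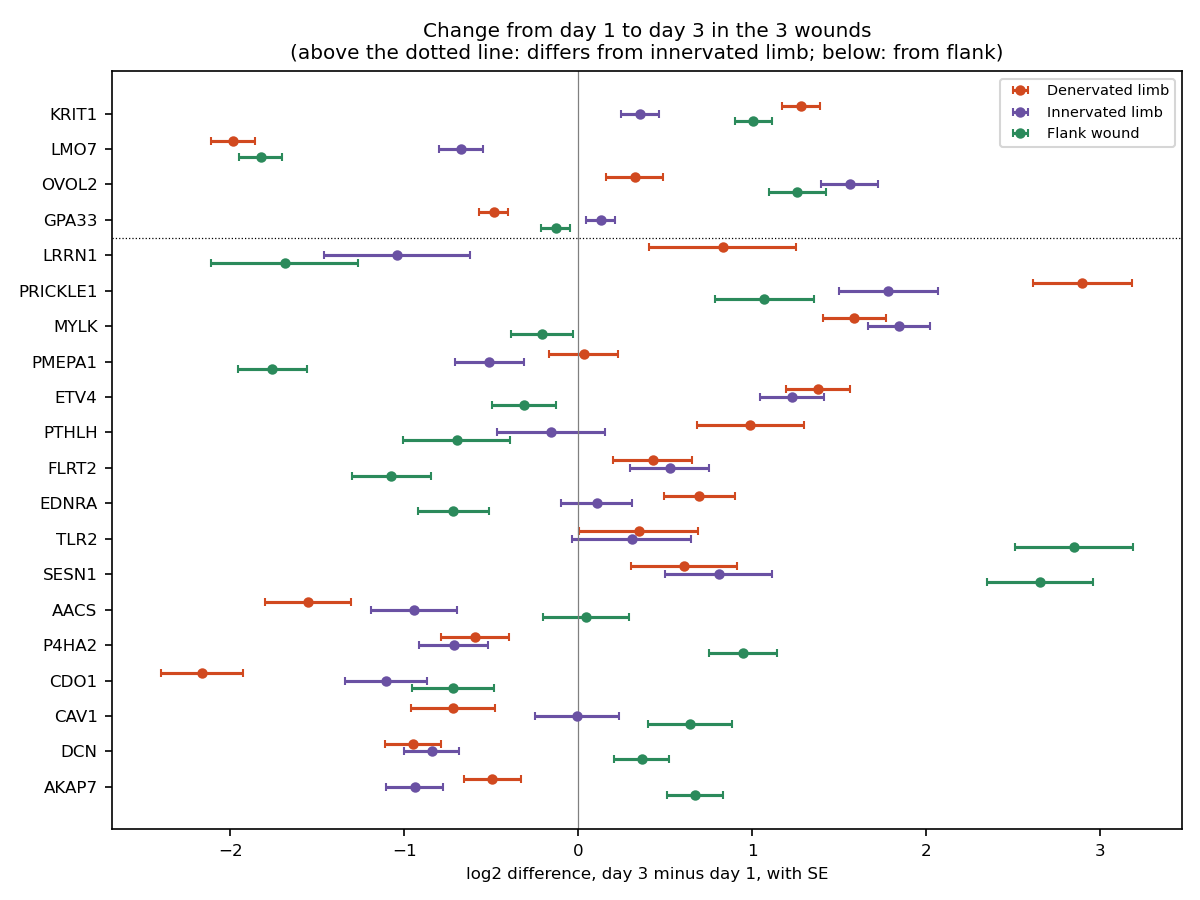
Log2 differences between day 3 and day 1 with their SE in the denervated limb (red), the innervated limb (purple) and the flank wound (green). Shown are selected genes whose change differed from that of the innervated limb (above the dotted line) or the flank wound (below it). LMO7 changes by −1.98 ± 0.13 in the denervated and −0.68 ± 0.13 in the innervated limb, and TLR2 by 0.35 ± 0.34 in the denervated limb and 2.85 ± 0.34 in the flank.

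In the innervated limb 18.7% of named genes rose and 11.2% fell from day 1 to day 3. Mitotic genes had 41 rises and 1 fall in the innervated limb (median 0.922), against 21 and 1 in the denervated limb (median 0.422), and for none of the 65 was the difference in change called in limma, where 0.313% of named genes were. Epidermal differentiation had 8 rises and 6 falls in the innervated limb (median 0.0925), against 2 and 16 (median −0.250), and 1 gene, OVOL2, differed. Cholesterol synthesis had 0 rises and 14 falls in the innervated limb and 0 and 13 in the denervated limb. The endoplasmic reticulum list had 1 rise and 20 falls against 1 and 24, and the proteasome 21 rises against 19, both with 0 falls. Skeletal muscle had 35 falls in the innervated limb against 7 in the denervated limb, or 28 there without day 3 replicate 3. Of the 42 muscle genes 0 had a called difference in change. Mean muscle levels in the innervated limb lay between 5.94 and 8.96 at day 1 and between 4.92 and 5.28 at day 3. Ion transport had 3 rises and 2 falls against 2 and 6. Of its genes 1 differed in limma, RHCG, chosen after its values were seen (difference in change −1.28 ± 0.28, adjusted p = 0.0241). RHCG did not pass the selection that required calls also without day 3 replicate 3 and without 3 arrays with muscle transcripts together.

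The flank wound heals skin without a limb to replace. The test of its change against that of the denervated limb called 209 probe sets with a more positive and 85 with a more negative change in the denervated limb, 1.47% of those tested, and 2598 had an unadjusted p under 0.05. The counts were as low as 107 without denervated day 3 replicate 1 and 38 without flank day 3 replicate 1. LRRN1, a leucine-rich repeat membrane protein, changed by 0.83 ± 0.42 in the denervated limb (not called), where it read 6.09, 7.07, 5.58 and 6.02 at day 1 and 8.13, 6.64, 6.44 and 6.87 at day 3, and by −1.69 ± 0.42 in the flank (difference 2.52 ± 0.59, adjusted p = 0.0225). PRICKLE1 rose in the denervated limb by more than in the flank, 2.90 ± 0.28 against 1.07 ± 0.28 (difference 1.83 ± 0.40, adjusted p = 0.0125). ETV4 changed by 1.38 ± 0.18 against −0.31 ± 0.18 (difference 1.69 ± 0.26, adjusted p = 0.000335). The myosin light chain kinase MYLK, which triggers contraction of non-muscle and smooth muscle cells, changed by 1.59 ± 0.18 against −0.21 ± 0.18 (adjusted p = 0.00013). MYLK read 6.75, 6.34, 6.73 and 6.88 at day 1 and 8.22, 8.30, 8.26 and 8.27 at day 3 in the denervated limb. These values are of 1 of its 3 probe sets. Between the days in the denervated limb 1 of the 3 rose and 1 fell, so the direction for MYLK depends on the probe set.

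Other genes of more positive change in the denervated limb were PMEPA1, a target and brake of TGF-beta signalling (0.03 ± 0.20 against −1.76 ± 0.20), the parathyroid hormone related protein PTHLH (0.99 ± 0.31 against −0.70 ± 0.31), the membrane protein FLRT2 (0.43 ± 0.23 against −1.08 ± 0.23) and the endothelin receptor EDNRA (0.70 ± 0.20 against −0.72 ± 0.20). The differences ranged from 1.41 to 2.52 log2 units over these 8 genes. Leaving out 1 array at a time, the call of PTHLH in this test was lost in 11 of 16 cases, with adjusted p-values up to 0.0907, and that of LRRN1 in 4, up to 0.0731. The day 1 to day 3 rise of PTHLH in the denervated limb was not called without day 1 replicate 4 (0.86, adjusted p = 0.0559). Of more negative change were the bacterial lipoprotein receptor TLR2 (0.35 ± 0.34 against 2.85 ± 0.34, adjusted p = 0.00422), the stress protein SESN1 (0.61 ± 0.31 against 2.66 ± 0.31), AACS, which activates acetoacetate for lipid synthesis (−1.55 ± 0.25 against 0.04 ± 0.25), and the collagen prolyl hydroxylase P4HA2 (−0.59 ± 0.20 against 0.95 ± 0.20). CDO1 (−2.16 ± 0.24 against −0.72 ± 0.24), the caveolar protein CAV1 (−0.72 ± 0.24 against 0.64 ± 0.24), DCN (−0.95 ± 0.16 against 0.36 ± 0.16) and the kinase anchor AKAP7 (−0.49 ± 0.16 against 0.67 ± 0.16) followed. The call of CAV1 was lost in 9 of 16 such cases, with adjusted p-values up to 0.0864, and that of CDO1 in 2, up to 0.0579. The 2 differences of DCN had opposite signs, and the test between them gave −1.32 ± 0.23 (adjusted p = 0.0012). A difference in change can lie at either day. SESN1 averaged 8.33 in the denervated limb and 6.42 in the flank at day 1, and 8.94 and 9.08 at day 3. For SESN1 the wounds thus lay farther apart at day 1 than at day 3. In the flank 16.9% of named genes rose and 13.2% fell. The red cell and thrombocyte list had 1 rise and 1 fall in the flank against 0 and 9, and 2 of its 18 genes differed in their change, against 1.75% of named genes. Replication genes had 37 rises in the flank against 19, and none of the 61 differed by the limma test.

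A gene symbol was missing here for 9084 probe sets, and the largest rise of the comparison was among them. The probe set axo31558-f_at read 7.51, 6.33, 7.59 and 6.99 at day 1 and 13.10, 11.99, 12.27 and 12.16 at day 3 and rose by 5.28 ± 0.34. The probe set axo29961-f_at rose by 5.10 ± 0.50, from 4.02, 3.99, 4.21 and 3.80 to 8.36, 10.07, 9.64 and 8.37. The probe sets axo12378-f_at and axo02299-f_at fell by 3.57 ± 0.58 and 3.20 ± 0.51. Several probe sets measured 1740 of the named genes, and for 33 of these genes they were called with opposite signs in this comparison. MYLK was among the 33. Of genes given above, ROBO1, PBRM1, PXDN and DES had 1 of 3 probe sets called, and CDH1 had 2 of 7. Among the largest or most significant changes, LAMA1, C1QTNF1, RB1CC1, ITGB5, HS3ST1, PLA2G7 and TIMP1 had 1 of 2 called. The same held for other genes given above, among them FASN, SLC16A1, BNIP3, PFKL, RFC4 and MBTPS1.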

How the data were processed

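Epidermis with adhering cells was profiled on 44 Affymetrix arrays in 11 groups of 4, and 8 arrays were compared here with the other groups as reference. The deposited values are log2 expression levels, and array medians lay between 5.61 and 5.72. RMA and limma appear in the submitters' processing notes with neither version nor role, and how intensities were summarised is not given in the sources used here. No normalization, floor or filter was added, 45 control probe sets were left out, and gene symbols came from the array's platform annotation. Symbols were attached to 10951 probe sets, none of them with several. For each gene the probe set of highest mean over the 44 arrays was used.

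A model with a mean for each of the 11 groups (33 residual degrees of freedom) was fitted by lmFit and eBayes of limma, version 3.58.1, under R version 4.3.3. Tests were two-sided, and p-values were adjusted by Benjamini-Hochberg over 20035 probe sets and called under 0.05. Differences in change were tested as contrasts of 4 group means, whose groups share no arrays. On simulated data with changes of 1 and 2 log2 units in the comparison of day 3 with day 1 over 20035 probe sets, between 88% and 100% of changed probe sets were called. There 50 probe sets were changed per size and direction, and noise was drawn independently for each probe set. Signal shared across an array, such as that of muscle, was not simulated, so the rate with such signal was not tested. Precision is limited by the number of arrays: over probe sets the SE of a difference had a median of 0.123. Correlations between arrays were 0.988 to 0.991 within day 1, 0.976 to 0.991 within day 3 and 0.968 to 0.977 between days, and no columns were identical.

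The members and the 38 gene lists, written from general knowledge, were chosen with earlier results of these data known. No set test was run, so lists are described by counts and medians. Named genes are the 15 largest and 5 most significant changes per direction, called with and without day 3 replicate 3 and without overlap of the groups. To these come up to 8 genes per direction in each difference of changes, called also without day 3 replicate 3 (and, against the innervated limb, without 3 arrays with muscle transcripts together). Up to 4 called members per list with the smallest adjusted p were added, and members that did not pass could be given. Alternatives were the arrays fitted, a replicate block, each replicate left out, array weights, a filter on the dimmest 25% of probe sets, quantile normalization, a variance trend, 1 probe set per gene, and corrections for muscle signal.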

Additional observations from a re-analysis of the deposited data

Results flagged for a closer look

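In 17 of 332 groups of 4 values examined, the array farthest from the others stood apart by Dixon's criterion, and chance alone flags about 1 in 20 groups. The figures that follow are the gap to the nearest array divided by the range of the group. Among day 3 arrays, replicate 1 stood apart for COL9A1 at 7.69, where the others lay between 4.34 and 4.86 (0.845), and for FGFBP1 at 9.13 (0.861). Replicate 2 stood apart for HMMR at 7.32 (0.854), and replicate 4 for ITGA6 at 7.84 (0.833). Day 3 replicate 3, which had the highest muscle signal, was the lowest for EZR at 11.35 (0.884) and SALL4 at 10.38 (0.867) and the highest for CTSD at 12.42 (0.927). Among day 1 arrays, replicate 1 was the highest for IGFBP6 (0.875), CRELD2 (1) and PKP3 (0.895), and had a low mean of the skeletal muscle list at 6.20, where the others lay between 7.66 and 7.91 (0.853). Replicate 2 was the lowest for MFAP2 at 11.44 (0.914). Replicate 3 was the highest for ETS2 (1), KIT (0.923) and SMAD4 (0.912). Replicate 4 was the lowest for RHAG at 8.01 (0.852) and for the mean of the erythrocyte and thrombocyte list at 7.03 (0.899).

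Only genes that passed the selection for differences of changes are listed next. The change from day 1 to day 3 in the denervated limb differed from that in the innervated limb, by the test of the difference in limma, for KRIT1 (0.92), LMO7 (−1.31), OVOL2 (−1.24) and GPA33 (−0.61). It differed from the flank in the positive direction for LRRN1 (2.52), PRICKLE1 (1.83), MYLK (1.80), PMEPA1 (1.79), ETV4 (1.69), PTHLH (1.69), FLRT2 (1.50) and EDNRA (1.41). It differed in the negative direction for TLR2 (−2.50), SESN1 (−2.05), AACS (−1.60), P4HA2 (−1.54), CDO1 (−1.45), CAV1 (−1.36), DCN (−1.31) and AKAP7 (−1.16). These values are differences of log2 changes.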

How the results depend on the processing

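For day 3 against day 1, leaving out each replicate in turn gave 2678 to 3084 probe sets higher and 1951 to 2187 lower, with both minima without day 1 replicate 2. Against the innervated limb the same procedure gave 6 to 39 with a more positive and 17 to 48 with a more negative change, and against the flank 107 to 244 and 38 to 98. Replicate number was not a block in the main fit. Deviations of same-numbered arrays from their group means correlated at 0.0868, −0.145, 0.0875 and −0.253. These values cannot settle whether arrays of the same number share a source. With the replicate block in a fit of the arrays compared, 2186 probe sets were higher and 1509 lower. The block gave 3 and 33 calls against the innervated limb and 82 and 25 against the flank. Fitting the arrays of the compared groups alone gave 2 and 13 against the innervated limb and 102 and 34 against the flank. With 1 probe set per named gene, which tests fewer features, the counts were 1722 and 1109 for day 3 against day 1, 22 more negative against the innervated limb, and 131 and 52 against the flank. Leaving out 3 arrays with muscle transcripts together gave 16 and 13 against the innervated limb, and the cause was not tested. Leaving out the 4 denervated arrays of highest muscle signal, chosen after seeing the data, gave 1289 and 944, with the lone day 1 array assumed to vary like the other groups. No call of a named gene changed sign under the alternatives run, but 14 of 38 list medians did under at least 1. For 12 of these the median with all arrays was within 0.1 of 0. The exceptions were skeletal muscle, from −0.943 to 0.0555 with the muscle covariate, and pigment cells, from −0.146 to 0.035 without the 4 arrays. Of the 164 named genes of the main comparison, 158 kept their call without day 3 replicate 3, 158 with the muscle covariate, 147 with the 8 arrays alone, 146 with the block and 117 without the 4 arrays. The largest and most significant changes had been selected for a call without day 3 replicate 3, so that first count was in part fixed in advance. Of 16 named differences from the flank, 10 kept their call with the block and 12 with the compared arrays alone, and of 4 from the innervated limb 3 did in each.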
